A study of Mus musculus with 12 samples.

Results

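Levels of 10 transcription factors that set or mark the epithelial lineages of the mammary gland were followed in single cells from mammary glands and mammary tumors of Brca1-deficient mice. The genes were Elf5, Ehf, Elf3, Spdef, Gata3, Foxa1, Tfap2c, Sox9, Sox10 and Trp63. They were chosen as known lineage factors, with earlier results of these data in view, and all 10 were present among the 21743 genes of the count table. RNA was measured by Drop-seq, in which cells are isolated in droplets with barcoded beads and every captured transcript is tagged with a molecular barcode (UMI), which removes PCR duplicates from the count. The table held 21157 cells in 12 libraries from 2 mice, with 2 libraries of the gland of mouse 1 (MG1), 2 of the gland of mouse 2 (MG2), 5 of the tumor of mouse 1 (MT1) and 3 of the tumor of mouse 2 (MT2). Both mice had the genotype MMTV-Cre; Brca1flox/flox on a mixed C57BL/6 and 129/Sv background, and the labels gave no age for them. For mice whose glands were isolated, the study's methods give an age range, a virgin or pregnant state and the fourth gland pair. They tie none of these to the tumor-bearing animals used here. The glands came from the tumor-bearing animal itself, so glands and tumors alike carried the Cre transgene and the floxed alleles. No wild-type gland was compared. The MMTV promoter drives Cre in mammary epithelium. Cells were enriched for epithelium by removing blood-forming and endothelial cells. The libraries of a group share a mouse and a tissue, and whether they were prepared from separate cell suspensions was not given in the sources used here, so p-values from libraries measure the spread between libraries of these 2 animals, which may be technical, and nothing about other mice.

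The mammary epithelium is a bilayer. An inner luminal layer holds secretory cells, which make milk, and hormone-sensing cells, which carry the estrogen and progesterone receptors, and an outer basal layer holds contractile myoepithelial cells. Elf5 drives the secretory alveolar program, Gata3 and Foxa1 act with the estrogen receptor in hormone-sensing cells, and Trp63 (p63) maintains the basal layer. Ehf, Elf3 and Spdef are ETS factors of many epithelia, Tfap2c is an AP-2 factor, and Sox9 and Sox10 are linked to progenitor cells of this tissue.

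The smallest library was MG1 replicate 2, with 693333 UMIs in 105 cells, and the largest held 14841414 UMIs. Medians per cell lay between 1784 and 4842 UMIs, the highest in MG1 replicate 2, which was short of cells and not of UMIs per cell. Libraries shared 0 to 7 cell barcodes, and no pair of libraries from 1 tissue agreed within sampling noise. Cells were clustered without the 10 factors and the clusters were named from marker lists that left the factors out. Gland cells fell into a secretory-like class (1201 cells), a hormone-sensing-like class (1185 cells) and a basal-like class (328 cells), with summed own-lineage markers of 27670, 24328 and 9438 counts per 1000000 UMIs (CPM). Cells of MT1 fell into epithelial-like clusters (6015 cells) and a mesenchymal-like cluster (1347 cells). Of the 9765 MT2 cells in tumor clusters, 5864 formed a mesenchymal-like cluster and 3901 a cluster led by division genes (Cenpe, Top2a) that was left without a type. The mesenchymal-like name rested on 3 markers, the least number needed. With finer clustering (resolution 1.0) it held for a cluster of 1310 MT2 cells. Clusters of 3597, 2458 and 2393 MT2 cells were then left without a type. The label of tumor epithelium did not hold for MT2, where the summed epithelial markers were 749 CPM with a median gene at 0.70 CPM, against 10032 and 436 CPM in MT1 epithelial-like cells. Stromal clusters (fibroblast-like, endothelial-like and immune-like, 1126 cells) served as a reference level outside the epithelium. That level is no proof of absent expression, since Gata3 had 9 UMIs in 20 endothelial-like cells of MG1 (128 CPM) and Ehf was higher in stromal than in mesenchymal-like cells of MT1. Some cells clustered against their tissue. Most of them were 68 MT1 cells in the hormone-sensing-like and 26 in the secretory-like cluster, 44 MG2 cells in the MT1 mesenchymal-like cluster, 17 gland cells in the MT1 epithelial-like clusters and 28 MT2 cells in MT1 clusters. These cells were left out of the class values but kept in the library sums.

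In the gland Foxa1 was concentrated in hormone-sensing-like cells. Foxa1, a pioneer factor that opens chromatin for the estrogen receptor, stood at 96.0 and 62.7 CPM in hormone-sensing-like cells of the 2 MG1 libraries and at 78.5 and 71.8 CPM in those of MG2. In secretory-like cells 3 of these libraries gave 5.90, 4.88 and 6.05 CPM, and the small MG1 replicate 2 gave 29.96 CPM, from 6 UMIs in 32 cells. The libraries of both classes did not overlap, and over pooled UMIs the hormone-sensing-like level was 12.2-fold the secretory-like level (95% counting interval 8.48 to 18.0). The ratio of the library means, in which MG1 replicate 2 weighs as much as the others, was 6.60. MT1 epithelial-like cells had 5.10 ± 1.17 CPM (SD, n = 5), from 73 UMIs. This was not above the 7.58 CPM of stromal cells of the same libraries, which rests on 4 UMIs, but it was above MT1 mesenchymal-like cells in 5 of 5 libraries (1.33 ± 1.46 CPM, from 3 UMIs). These counts do not settle how much of the MT1 level is background. The 9765 MT2 cells held 0 Foxa1 UMIs, which allows a share of cells with a UMI of up to 0.0307%. Intervals and limits of this kind cover counting error only.

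Foxa1 lies on chromosome 12 (57540628 to 57546916, minus strand, GRCm38). Because Foxa1, Gata3 and Spdef were lower in both tumors, the bases before a RefSeq start of each are shown (GRCm38.p6, without annotated UTR bases, 5′ to 3′ on the gene's strand). The RefSeq starts used for Foxa1 and Gata3 lie inside the longer GENCODE gene spans given here, so their windows are internal to those genes. The window of Foxa1 is chr12:57546122-57546361 (minus strand), and capitals mark a forkhead motif (TGTTTAC or its reverse complement) that shares bases with SOX motifs (ACAAAG or its reverse complement).
Foxa1: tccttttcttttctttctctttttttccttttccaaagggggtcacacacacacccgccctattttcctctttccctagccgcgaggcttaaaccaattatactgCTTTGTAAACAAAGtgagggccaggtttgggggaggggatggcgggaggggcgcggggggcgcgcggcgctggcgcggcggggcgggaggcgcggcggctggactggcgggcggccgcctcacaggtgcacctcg
The 240 bases held 1 forkhead and 2 SOX matches, counted on both strands. Among 32536 windows of 250 bases before RefSeq starts, 3.17% held the forkhead motif and 16.5% the SOX motif. A match is a description of letters and not a bound site.

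Gata3, a zinc-finger factor required for luminal differentiation, was less restricted. Its level was 202 ± 31.4 CPM in hormone-sensing-like, 140 ± 28.0 in secretory-like and 105 ± 40.2 CPM in basal-like cells (n = 4, 4 and 3 libraries). The hormone-sensing-like libraries (165 to 236 CPM) all lay above the secretory-like ones (98.8 to 160 CPM), while secretory-like and basal-like libraries overlapped. All tumor classes were lower. MT1 epithelial-like cells had 24.5 to 32.3 CPM, MT1 mesenchymal-like cells 18.5 to 22.3 CPM and MT2 cells 17.6 to 27.8 CPM. Within MT1 the epithelial-like cells were higher in 5 of 5 libraries without overlap, and MT2 overlapped both. In MT1 neither class stood beyond counting error above stromal cells (15.2 CPM), at 1.84-fold (0.93 to 4.30) and 1.38-fold (0.67 to 3.30). In MT2 the tumor cells did, at 2.30-fold (1.41 to 4.04) the stromal 10.1 CPM.

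Gata3 lies on chromosome 2 (9857078 to 9890034, minus strand) and overlaps 3 genes that are also in the table, Gm13256, 4930412O13Rik and 9230102O04Rik. Whether counting used strand was not given in the sources used here, so its counts are uncertain to that extent. In its window, chr2:9878601-9878850 (minus strand), capitals mark AP-2 motifs (GCCNNNGGC, palindromic), the element read by the Tfap2 family.
Gata3: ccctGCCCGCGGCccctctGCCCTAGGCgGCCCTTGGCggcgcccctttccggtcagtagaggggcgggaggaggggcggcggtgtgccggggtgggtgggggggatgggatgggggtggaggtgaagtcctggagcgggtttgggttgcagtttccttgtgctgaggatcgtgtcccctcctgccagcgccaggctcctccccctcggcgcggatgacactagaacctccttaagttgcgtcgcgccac
The 250 bases held 3 AP-2 matches, and 13.8% of the 32536 windows held the motif at least once. This window was 70.0% G and C, against a median of 52.4% over all windows. The fixed letters of the motif are all G or C, so that share is no like reference for it.

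Spdef, an ETS factor of secretory and hormone-responsive luminal cells, was scarce. It had 10.0 ± 6.68 CPM in hormone-sensing-like cells, from 38 UMIs, and 2.34 CPM on average in secretory-like cells, from 9 UMIs, a ratio of 4.14 over pooled UMIs (1.97 to 9.74). The library ranges of these classes, 4.76 to 19.6 and 0 to 4.99 CPM, touched only through the small MG1 replicate 2. Tumor classes held 1 to 4 Spdef UMIs each. Its window, chr17:27728956-27729201 (minus strand), lies before the GENCODE gene and held 0 matches to the forkhead, SOX and AP-2 letters, so none are in capitals.
Spdef: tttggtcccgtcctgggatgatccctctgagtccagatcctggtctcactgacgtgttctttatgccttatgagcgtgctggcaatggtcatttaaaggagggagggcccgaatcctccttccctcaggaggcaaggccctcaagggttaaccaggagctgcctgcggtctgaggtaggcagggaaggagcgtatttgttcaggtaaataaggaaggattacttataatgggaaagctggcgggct

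Elf5, the ETS factor of alveolar secretory differentiation, had like levels in secretory-like gland cells and epithelial-like MT1 cells. Secretory-like gland cells had 62.0, 84.9, 73.3 and 80.3 CPM in the 4 gland libraries, and MT1 epithelial-like cells 75.8, 52.4, 64.4, 56.9 and 69.9 CPM in the 5 tumor libraries. The ranges overlapped. Hormone-sensing-like cells had 15.6 ± 8.06 CPM, below every library of the other pair, and over pooled UMIs the secretory-like level was 4.04-fold theirs (3.20 to 5.15). Basal-like cells held 0 Elf5 UMIs in all libraries, which put secretory-like cells at least 22.8-fold higher (3 counts over the basal-like cells). MT1 mesenchymal-like cells had 4.71 ± 3.03 CPM against 11.4 CPM in stromal cells of the same tumor. MT2 cells held 2 Elf5 UMIs in 9765 cells.

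Elf5 lies on chromosome 2 (103411688 to 103450989, plus strand). The bases before its second annotated RefSeq start, chr2:103423818-103424061 (plus strand, inside the GENCODE gene), are shown as the counterpart of these windows, since Elf5 fell in the tumor of mouse 2 alone. The first start lies among annotated UTR bases and is not printed.
Elf5: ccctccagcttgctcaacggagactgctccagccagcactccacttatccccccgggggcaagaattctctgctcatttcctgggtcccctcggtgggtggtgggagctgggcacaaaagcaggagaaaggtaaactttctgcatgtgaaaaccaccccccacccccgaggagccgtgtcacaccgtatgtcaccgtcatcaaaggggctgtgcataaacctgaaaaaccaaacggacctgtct
These 244 bases held 0 matches to the forkhead, SOX and AP-2 letters, so none are in capitals. They also held 0 matches to an ETS motif (GGAAGT), which 19.8% of the 32536 windows held. Of the 10 genes, 5 had a window in the RefSeq table used.

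Ehf is the neighbour of Elf5. It lies 108 kb away on the opposite strand of chromosome 2 (103263433 to 103303278, minus strand, in GRCm38) and encodes another epithelial ETS factor. Its level was higher in MT1 epithelial-like cells (518, 479, 598, 540 and 550 CPM) than in any gland class. Secretory-like cells had 387, 185, 302 and 273 CPM and hormone-sensing-like cells 113, 255, 213 and 213 CPM, and these overlapped. The lowest MT1 library lay above the highest gland library, and over pooled UMIs MT1 epithelial-like cells were at 1.81-fold (1.71 to 1.92) the secretory-like level. Basal-like cells had 50.8 ± 44.5 CPM (n = 3), and over pooled UMIs they were within counting error of stromal gland cells (39.5 CPM). By gland they were at 90.3 CPM against a stromal 50.7 CPM in MG1, and at 24.9 against 29.4 CPM in MG2. Stromal cells of MT1 had 153 CPM, above the 59.1 ± 10.8 CPM of MT1 mesenchymal-like cells, while the epithelial-like cells were at 3.59-fold (2.88 to 4.52) the stromal level.

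Elf3, another ETS factor of simple epithelia, followed the same outline with a flatter profile. MT1 epithelial-like cells had 171 ± 24.2 CPM and secretory-like cells 166 ± 14.1 CPM, with overlapping libraries, and hormone-sensing-like cells 108 ± 31.7 CPM, below all secretory-like libraries. MT1 mesenchymal-like cells (18.2 ± 4.45 CPM) were under the stromal level of their libraries, 49.3 CPM. Basal-like cells had 19.7 ± 20.8 CPM, against 20.9 CPM in stromal gland cells over pooled UMIs. By gland they were at 37.4 CPM against a stromal 21.3 CPM in MG1, and at 8.31 against 20.6 CPM in MG2. MT2 cells had 1.40 ± 0.36 CPM (n = 3). Elf3 (chromosome 1, 135253575 to 135258568, minus strand) overlaps the antisense gene Gm26642, also in the table. CPM of different genes are not corrected for transcript length, and Drop-seq counts 3′ ends, so levels are not ordered between genes here.

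**Figure D1:**
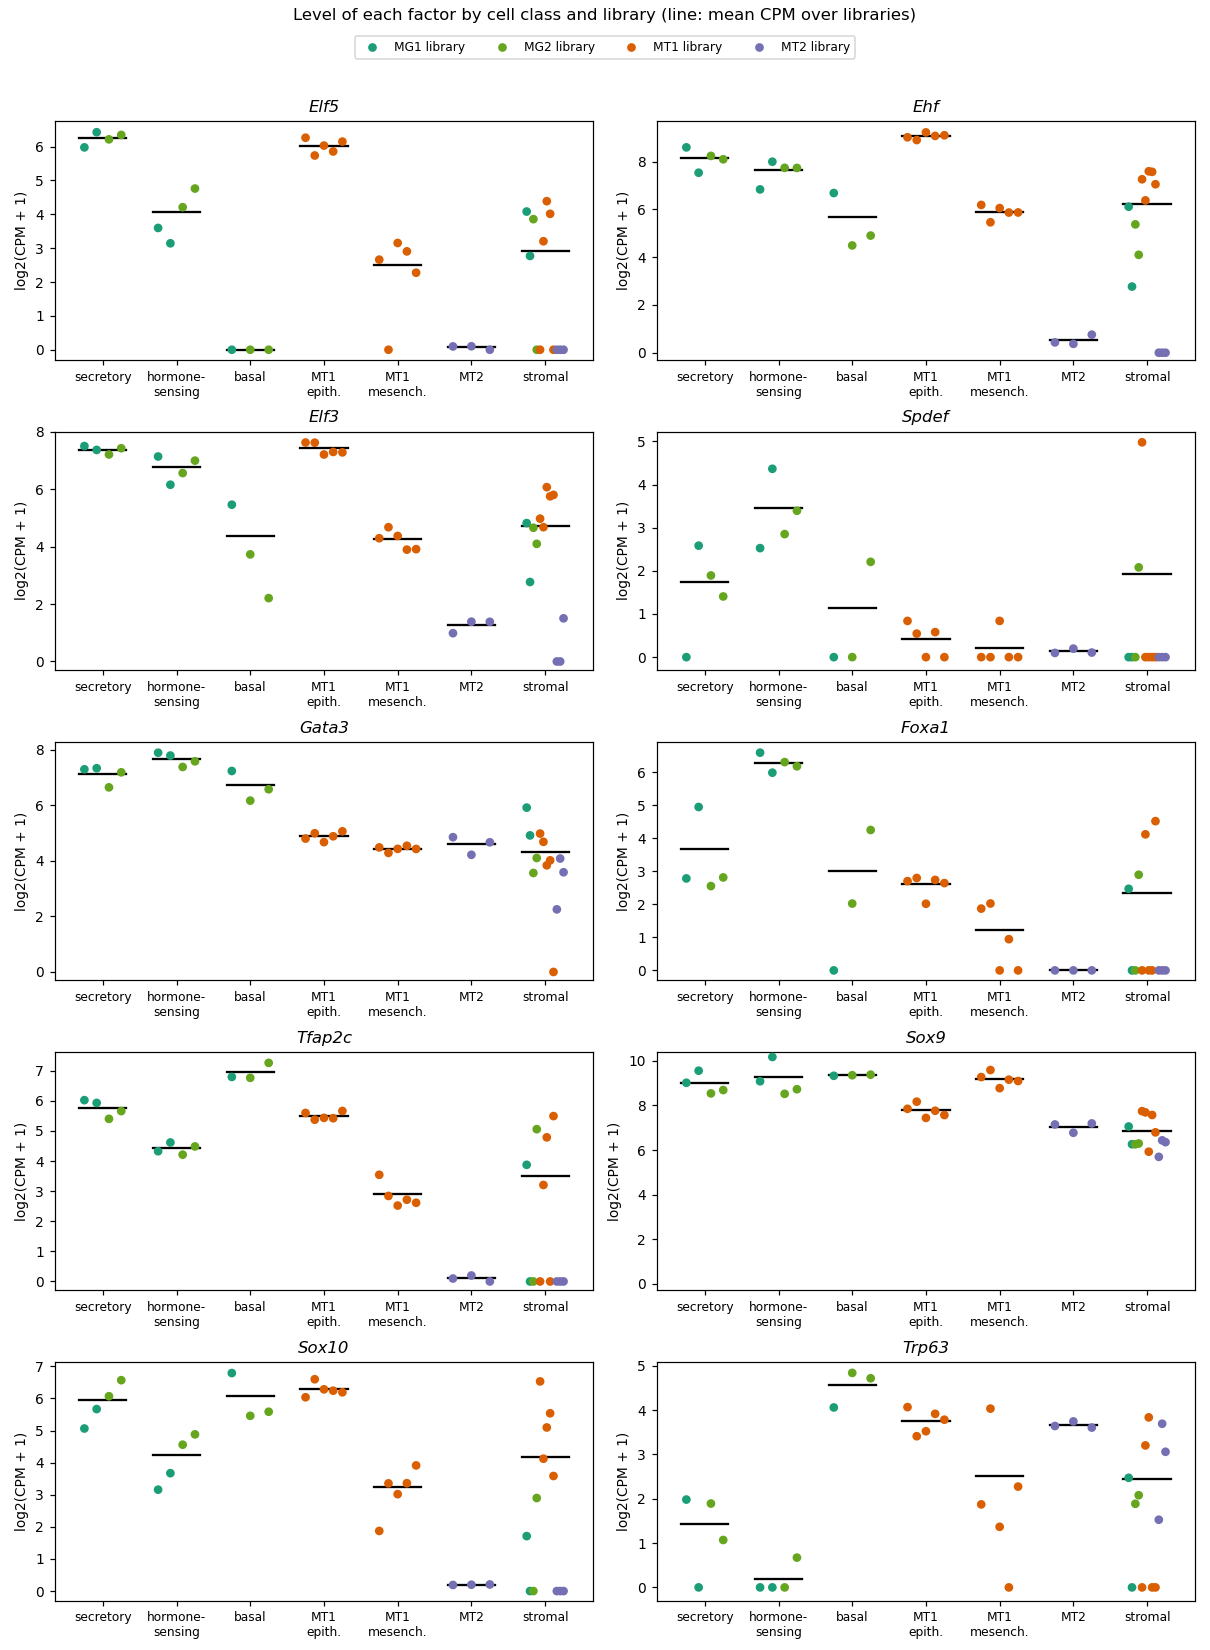
Level of each factor as log2(CPM + 1) by cell class (secretory, hormone-sensing and basal gland cells, epithelial-like and mesenchymal-like MT1 cells, MT2 cells and stromal cells), 1 point per library and a line at the mean CPM. Foxa1 stands apart in hormone-sensing-like cells, Ehf is highest in MT1 epithelial-like cells (479 to 598 CPM), and in MT2 cells 6 of the factors sit near 0 and Elf3 at 1.40 CPM.

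Tfap2c, an AP-2 factor, was highest in basal-like gland cells, and its MT1 epithelial-like level overlapped the secretory-like one. Basal-like cells had 123 ± 25.1 CPM (n = 3), with the lowest library at 108 CPM and every library of the other classes at or below 64.0 CPM. Secretory-like (53.7 ± 10.3 CPM) and MT1 epithelial-like cells (44.3 ± 3.97 CPM) overlapped, and both lay above hormone-sensing-like cells (20.4 ± 2.63 CPM). MT1 mesenchymal-like cells had 6.45 ± 2.41 CPM, under the 17.1 CPM of MT1 stromal cells, and MT2 cells held 3 UMIs. Tfap2c lies on chromosome 2 (172549593 to 172558622, plus strand).

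Trp63, the p63 gene of the basal layer (chromosome 16, 25683763 to 25892102, plus strand), was low throughout. Basal-like cells had 22.9 ± 6.35 CPM (n = 3), from 15.7, 27.7 and 25.4 CPM. Secretory-like cells had 1.69 CPM on average from 10 UMIs, and hormone-sensing-like cells 1 UMI. Tumor cells lay in part between these levels. MT1 epithelial-like cells had 15.8, 9.64, 10.5, 14.1 and 12.8 CPM and MT2 cells 11.5, 12.4 and 11.2 CPM, and their libraries overlapped. All of these lay above the secretory-like libraries, and the highest MT1 library reached the lowest basal-like one. MT1 mesenchymal-like cells, with 11 UMIs and 0 to 15.4 CPM, overlapped secretory-like cells. Over pooled UMIs the MT1 epithelial-like and MT2 levels were 5.93-fold (3.15 to 12.6) and 5.71-fold (3.08 to 11.98) the secretory-like level. Against stromal cells of their own libraries they were 2.14-fold (0.72 to 10.5) and 1.68-fold (0.93 to 3.39), within counting error. The summed basal markers were 238 CPM in MT1 epithelial-like and 17.1 CPM in MT2 cells against 9438 CPM in basal-like cells.

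Sox9, a SOX factor of progenitor cells, had 655 ± 11.5 CPM in basal-like (n = 3), 622 ± 363 in hormone-sensing-like and 514 ± 171 CPM in secretory-like gland cells. In the 3 libraries with a basal-like class, basal-like cells were above both luminal classes in 3 of 3, and the ranges overlapped through MG1 replicate 2, which had too few basal-like cells. The hormone-sensing-like spread came from MG1 replicate 2, which had 1156 CPM in 26 cells against 367 to 543 CPM in the other 3 libraries. MT1 mesenchymal-like cells had 438 to 770 CPM and MT1 epithelial-like cells 173 to 287 CPM, without overlap, a pooled ratio of 2.61 (2.47 to 2.76), and MT1 mesenchymal-like cells were above the stromal level beyond counting error (3.77-fold, 3.00 to 4.81). MT2 cells had 141, 109 and 145 CPM, below every MT1 library and 1.82-fold (1.51 to 2.21) the stromal level of their libraries. Sox9 lies on chromosome 11 (112782224 to 112787760, plus strand).

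Sox10, a neural crest factor also active in mammary progenitor cells, was at 76.9 ± 11.6 CPM in MT1 epithelial-like, 66.6 ± 37.5 in basal-like and 60.7 ± 26.2 CPM in secretory-like cells, with overlapping libraries. The order of the last 2 reversed between the glands. Basal-like and secretory-like cells were at 112 and 35.3 CPM in MG1 and at 44.9 and 80.0 CPM in MG2. Hormone-sensing-like cells had 17.7 ± 9.51 CPM, below every library of the MT1 epithelial-like, basal-like and secretory-like cells. MT1 mesenchymal-like cells (8.47 ± 4.13 CPM) were under the 32.2 CPM of MT1 stromal cells, and MT2 cells held 6 UMIs. Sox10 lies on chromosome 15 (79154908 to 79165240, minus strand), and Spdef on chromosome 17 (27714352 to 27728955, minus strand).

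Counted against the stromal cells of the same libraries, 7 of the 10 factors were higher beyond counting error in secretory-like cells, where 22.4% of 13640 genes were. The number was 8 in hormone-sensing-like cells (30.5% of all genes), 5 in basal-like cells (15.2%) and 6 in MT1 epithelial-like cells (15.3%). It was 1 in MT1 mesenchymal-like cells (Sox9, beside 14.8% of all genes) and 2 in MT2 cells (Gata3 and Sox9, beside 19.8%), which is near the share of all genes. Stromal cells helped to define the clusters, so these counts are a description. The 6 of the MT1 epithelial-like cells were Elf5, Ehf, Elf3, Tfap2c, Sox9 and Sox10.

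To compare tumor with gland of the same mouse, UMIs of all non-stromal cells were summed per library and tested with edgeR across 13640 genes. The sums mix cell classes, so fewer cells of a class and less RNA per cell cannot be told apart in them. In mouse 1 Elf5, Ehf, Sox10 and Trp63 rose and Spdef, Gata3, Foxa1, Tfap2c and Sox9 fell, and in mouse 2 all but Trp63 fell. In MT1 against MG1, 4 factors were higher and 5 lower at an adjusted p under 0.05, where 59.3% of all genes tested passed (32.2% higher and 27.1% lower). The median log2 fold change was -0.16 for the 10 factors and 0.11 for all genes. In MT2 against MG2, 1 factor was higher and 9 were lower, where 67% of all genes passed (32.8% higher and 34.2% lower), and the median was -6.65 for the factors and -0.05 for all genes. The counts of mouse 1 lay closer to the background than the 9 falls of mouse 2.

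Elf5 had 35.0 and 32.8 CPM in the MG1 libraries, 58.2, 44.7, 54.8, 46.5 and 55.3 in MT1, 39.8 and 44.7 in MG2, and 0.22, 0.15 and 0.08 CPM in MT2. All MT1 libraries lay above all MG1 libraries, and MT2 lay far below MG2. The log2 fold change was 0.59 (SE 0.19, edgeR adjusted p = 0.0109) in mouse 1 and -7.92 (SE 0.27, adjusted p = 5.0e-14) in mouse 2. The rise in mouse 1 passed narrowly. Without MG1 replicate 1 it was 0.77 with adjusted p = 0.0530 and by DESeq2 0.48 with 0.0601. Cell makeup moved with it. Secretory-like cells were 42.6% of the MG1 cells in gland classes, and within that class Elf5 overlapped its MT1 level. The part of makeup in the change was not tested.

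Ehf had 262 and 181 CPM in MG1 and 405, 418, 507, 442 and 444 CPM in MT1, a log2 fold change of 0.97 (SE 0.18, edgeR adjusted p = 0.000154). It was 225 and 203 CPM in MG2 and 0.96, 1.68 and 1.73 CPM in MT2, a change of -7.18 (SE 0.23, adjusted p = 3.5e-14). The groups overlapped in neither mouse. Elf3 had 159 and 89.8 CPM in MG1 and 126 to 180 CPM in MT1, which overlapped (0.13, SE 0.20, adjusted p = 0.602). This value turned on a library of the gland, since it was -0.14 without MG1 replicate 2 and 0.78 (adjusted p = 0.0231) without MG1 replicate 1. In mouse 2 Elf3 went from 106 and 124 CPM to between 1.18 and 1.91 CPM (-6.12, SE 0.26, adjusted p = 7.0e-13).

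Gata3 and Foxa1 fell in both tumors. Gata3 had 209 and 171 CPM in MG1 against 25.3 to 30.3 CPM in MT1 (log2 fold change -2.79, SE 0.17, edgeR adjusted p = 8.6e-10), and 120 and 146 CPM in MG2 against 29.3, 18.4 and 25.3 CPM in MT2 (-2.45, SE 0.18, adjusted p = 1.2e-09). Foxa1 had 52.8 and 38.0 CPM in MG1 against 2.81 to 5.88 CPM in MT1 (-3.48, SE 0.25, adjusted p = 1.8e-08). In mouse 2 it had 35.7 and 32.2 CPM in the gland and 0 UMIs in all 3 tumor libraries, which is at least 491-fold lower against 3 counts over the tumor. Hormone-sensing-like cells carried 137 of 149 Foxa1 UMIs in MG1 and 260 of 286 in MG2. The 68 MT1 cells that clustered with them carried 3 of the 80 Foxa1 UMIs of non-stromal MT1 cells. The part of cell makeup in these falls was not tested.

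Spdef had 2.50 and 10.4 CPM in MG1 against 0 to 0.59 CPM in MT1 (log2 fold change -3.75, SE 0.76, edgeR adjusted p = 0.000408), and 3.83 and 4.93 CPM in MG2 against 0.07 to 0.15 CPM in MT2 (-5.16, SE 0.61, adjusted p = 5.7e-07), where MT2 held 4 UMIs in all. Tfap2c had 52.8 and 43.2 CPM in MG1 and 34.4 to 39.9 CPM in MT1. Its change of -0.44 (SE 0.17, adjusted p = 0.0305) was called by a small margin. It was -0.13 without MG1 replicate 1 (adjusted p = 0.740), and lost its call under 7 of 18 alternatives, among them leaving out MG2 replicate 1 (-0.40), MG2 replicate 2 (-0.40) or MT1 replicate 3 (-0.43). In mouse 2 Tfap2c went from 34.0 and 39.5 CPM to 0.07, 0.23 and 0.16 CPM (-7.72, SE 0.27, adjusted p = 5.0e-14).

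Of the SOX genes, Sox9 fell in both mice and Sox10 moved in opposite directions. Sox9 had 615 and 942 CPM in MG1 against 232 to 351 CPM in MT1 (log2 fold change -1.40, SE 0.18, edgeR adjusted p = 3.4e-06), and 397 and 423 CPM in MG2 against 114 to 150 CPM in MT2 (-1.57, SE 0.20, adjusted p = 1.2e-06). The 44 MG2 cells in the MT1 mesenchymal-like cluster held 7.24% of the MG2 Sox9 UMIs. Sox10 had 32.5 and 36.3 CPM in MG1 against 48.8 to 83.9 CPM in MT1 (0.93, SE 0.22, adjusted p = 0.00153), and 42.4 and 54.8 CPM in MG2 against 0.24 to 0.31 CPM in MT2 (-7.34, SE 0.29, adjusted p = 2.8e-13).

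Trp63 was the 1 factor called higher in both tumors. It had 2.91 and 1.73 CPM in MG1 against 8.90 to 12.3 CPM in MT1 (log2 fold change 1.98, SE 0.39, edgeR adjusted p = 0.000287), and 3.35 and 2.35 CPM in MG2 against 12.1, 13.0 and 11.5 CPM in MT2 (2.09, SE 0.27, adjusted p = 1.8e-06). Every tumor library lay above every gland library. Basal-like cells, the class with the most Trp63, were 16.4% of the MG1 and 10.7% of the MG2 gland cells in classes.

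**Figure D2:**
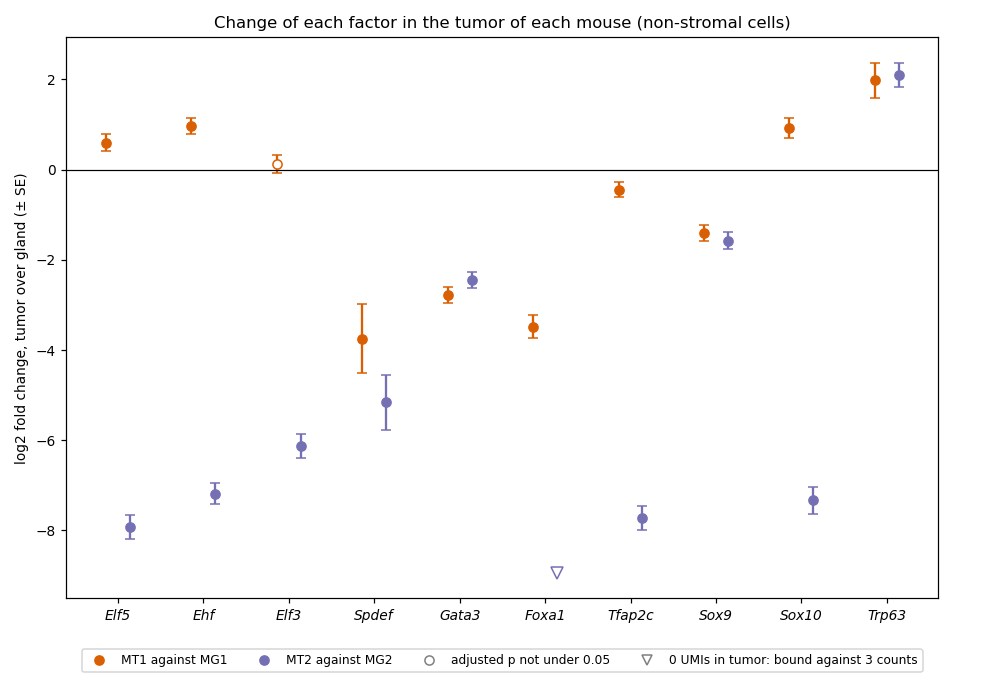
Log2 fold change of each factor, tumor over gland of the same mouse, with its SE (filled points: edgeR adjusted p under 0.05, triangle: lower bound of the fall of Foxa1 from 0 UMIs in MT2). Elf5, Ehf, Elf3, Tfap2c and Sox10 stay between -0.44 and 0.97 in mouse 1 and lie at -6.12 or lower in mouse 2, while Gata3, Sox9 and Trp63 have like changes in both.

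The difference between the changes of both mice was tested in the same fit. It was positive for 6 factors and negative for 0, also for 0 at an unadjusted p under 0.05 and by DESeq2, where 43.4% of all genes passed (26.3% positive and 17.1% negative). These were Elf5 (8.52, SE 0.35, edgeR adjusted p = 3.5e-12), Ehf (8.16, SE 0.31, adjusted p = 2.5e-12), Elf3 (6.25, SE 0.34, adjusted p = 9.3e-11), Sox10 (8.26, SE 0.38, adjusted p = 1.2e-11), Tfap2c (7.28, SE 0.34, adjusted p = 1.5e-11) and Foxa1, whose size depends on a tumor at 0 UMIs. No difference passed for Spdef (1.42, SE 1.01), Gata3 (-0.34, SE 0.26), Sox9 (0.17, SE 0.27) or Trp63 (-0.11, SE 0.54), with adjusted p of 0.273, 0.305, 0.649 and 0.914. Their SE leave room for differences, widest for Spdef. In MT1 against MT2, 7 factors were higher in MT1 and 0 lower, again also for 0 at an unadjusted p under 0.05 and by DESeq2, where 68.4% of all genes passed (35.3% higher and 33.1% lower). Sox9 was among the 7, at 1.09 (SE 0.17, adjusted p = 1.2e-05), and Spdef, Gata3 (0.20, SE 0.16) and Trp63 (-0.20, SE 0.16) were not called.

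The few MT2 UMIs of the factors that fell most came in part from cells outside the MT2 clusters. Of 57 Ehf UMIs in MT2 libraries, 36 were in 15 MT2 cells of the MT1 epithelial-like clusters, 3 in 13 MT2 cells of the MT1 mesenchymal-like cluster and 18 in the 9765 cells of the MT2 clusters. Those 15 cells also held 4 of the 6 Elf5, 5 of the 11 Sox10 and 3 of the 6 Tfap2c UMIs. With only cells that clustered with their own tissue, all 9 falls in mouse 2 kept their call, and those of Ehf and Sox10 went to -8.85 and -8.17.

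With the mouse as replicate, gland and tumor sums of each animal were compared in a paired fit of 4 sums. No factor passed adjustment, nor did any of 14944 genes (0% called), and 4 factors had an unadjusted p under 0.05 against 14.9% of all genes. These were Gata3 (log2 fold change -2.59), Sox9 (-1.36), Spdef (-4.43) and Trp63 (2.10). By DESeq2 the same pairing called 1346 of 21667 genes and 4 of the factors, all lower.

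Fixed lists of other regulators were counted in the same fits. Of 25 other mammary lineage regulators, 24 were tested. In MT1 against MG1, 2 were higher and 15 lower, with a median log2 fold change of -0.92. The largest changes were falls of the progesterone receptor Pgr (-6.29), Tfap2b (-5.71), the estrogen receptor cofactor Cited1 (-5.14) and Id4 (-4.22). In MT2 against MG2, 1 was higher and 20 lower, with a median of -4.43. Here Tfap2b went from 319 UMIs to 0 (at least 547-fold lower) and Myb from 109 UMIs to 0 (at least 187-fold lower). Pgr went from 630 UMIs among 7975800 in MG2 to 3 among 41044600 in MT2. Grhl2, which maintains epithelial junctions, changed by -6.81 (SE 0.40, edgeR adjusted p = 5.1e-11). Beside these 15 and 20 falls among 24 genes stand falls of 27.1% and 34.2% of all genes tested in mouse 1 and mouse 2.

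Of 16 close paralogs of the 10 factors, 12 were in the table and 10 tested. In MT1 against MG1, 4 were higher and 2 lower, near the 32.2% and 27.1% of all genes, with a median log2 fold change of 0.27. Sox8 (66 UMIs in MT1) and Sox11 (61 UMIs) had 0 UMIs in MG1 and were at least 3.59-fold and 3.32-fold higher. Gata6 had 161 UMIs among 19452940 in MT1 and 1 among 3176804 in MG1, and Tfap2b fell as above. In MT2 against MG2, 2 were higher and 5 lower, beside 32.8% and 34.2% of all genes. Gata2 rose from 2 UMIs among 7975800 in MG2 to 513 among 41044600 in MT2, so the raw counts overstate its rise. Tfap2b fell as above, Tfap2a changed by -3.58 (SE 0.19, edgeR adjusted p = 1.6e-11) and Elf1 by -2.31 (SE 0.20, adjusted p = 1.3e-08). Gata6 and Sox8 had 0 UMIs in both groups of mouse 2.

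Of 10 transcription factors that drive epithelial-to-mesenchymal transition, 8 were tested. In MT1 against MG1, 4 were higher and 1 lower (median log2 fold change 1.43), beside 32.2% and 27.1% of all genes, with Snai1 at 3.04, Twist1 at 2.50, Prrx1 at 2.13 and Snai2 at -2.48. In MT2 against MG2, 6 were higher and 1 lower (median 2.57), beside 32.8% and 34.2% of all genes, with Zeb1 at 4.90, Twist2 at 4.88 and Zeb2 at 4.46 (SE 0.31, edgeR adjusted p = 4.9e-10). Snai2, which is also a basal-layer factor of the normal gland, was lower here too, at -5.66 (SE 0.37, adjusted p = 1.9e-10).

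Within MT1 the factors differed between the epithelial-like clusters. Cluster 3 (3565 cells, led by Sfrp1 and Pla2g7) and cluster 4 (2450 cells, led by Ccl20 and Tnfrsf11b) had like depth, with medians of 2113 and 2045 UMIs per cell. Trp63 was 18.4 CPM in cluster 3 and 3.63 CPM in cluster 4 on average, a 5.08-fold ratio, and was higher in cluster 3 in all 5 libraries. Tfap2c followed with 58.0 and 23.3 CPM (2.49-fold, 5 of 5 libraries), and Gata3 with 34.5 and 19.6 CPM (1.76-fold, 5 of 5). The Trp63 level of cluster 4 was under the 5.68 CPM of MT1 stromal cells (3 UMIs) and its Gata3 level near their 15.2 CPM (8 UMIs). Sox9 was also higher in cluster 3 in 5 of 5 libraries, at 247 against 175 CPM (1.41-fold), with overlapping ranges. Cluster 4 was higher in all 5 libraries for Ehf, with 724 against 415 CPM, for Elf3, with 205 against 148 CPM, and for Foxa1, with 9.65 against 2.14 CPM. The Ehf libraries did not overlap between the clusters, and the Foxa1 level of cluster 4 was near the 7.58 CPM of stromal cells of the same tumor. Elf5 was closer, at 68.6 and 56.6 CPM, higher in cluster 3 in 5 of 5 libraries with overlapping ranges. Since the clusters were drawn from the same cells, these values are a description without a test. In MT2 the dividing and the mesenchymal-like cluster overlapped for Gata3, at 16.8 to 27.8 against 18.4 to 27.8 CPM. They also overlapped for Trp63 (9.43 to 12.4 against 12.2 to 12.4 CPM) and Sox9 (99.1 to 136 against 119 to 158 CPM). For Elf3 they did not overlap, by a narrow margin, with 1.32 to 2.96 CPM (40 UMIs) against 0.15 to 1.31 CPM (17 UMIs).

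**Figure D3:**
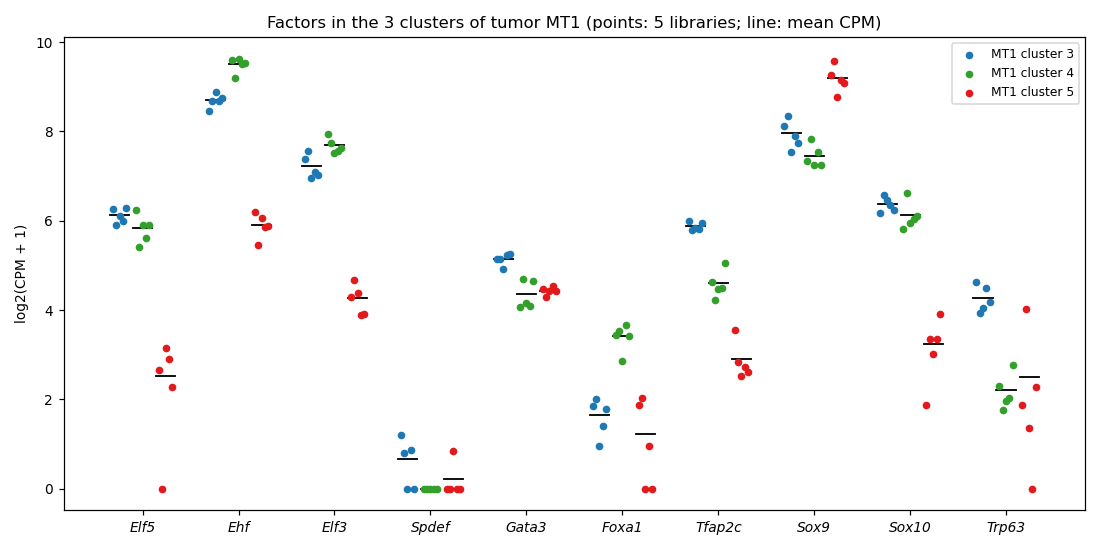
Level of each factor as log2(CPM + 1) in clusters 3 and 4 (epithelial-like) and 5 (mesenchymal-like) of tumor MT1, 1 point per library and a line at the mean CPM. Trp63, Tfap2c and Gata3 are higher in cluster 3, Ehf, Elf3 and Foxa1 in cluster 4, and Sox9 in cluster 5 (588 CPM on average).

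To compare shares of cells with a UMI at equal depth, each cell was thinned to 1000 UMIs, and no cell was shallower. Ehf was seen in 38.4% of MT1 epithelial-like cells (95% Clopper-Pearson interval 37.2 to 39.6), 22.5% of secretory-like cells (20.1 to 24.9) and 0.0102% of MT2 cells. Among stromal cells the share was 12.7% in MT1, 3.31% in MG1 and 1.32% in MG2. Before thinning the first 2 shares were 62.7% and 49.4%. Elf5 was seen in 5.67% (5.10 to 6.28) of MT1 epithelial-like and 5.08% (3.91 to 6.48) of secretory-like cells, against 1.31% of MT1 stromal cells. Foxa1 was seen in 8.44% of hormone-sensing-like cells and in 0.55% of MT1 epithelial-like cells, against 0 of 151 stromal cells in MG1, 1 of 227 in MG2 and 0 of 229 in MT1. The last allows a share of up to 1.31%, so the MT1 epithelial-like share was not distinguishable from the stromal one at this depth. Sox9 was seen in 39.0% of MT1 mesenchymal-like cells (36.4 to 41.6), 41.8% of basal-like cells (36.4 to 47.3) and 11.4% of MT2 cells, against 11.4% and 5.39% of stromal cells in MT1 and MT2. At this depth a cell showed few of the factors. At least 3 of the 10 were seen in 4.91% of secretory-like, 4.64% of hormone-sensing-like, 2.44% of basal-like and 4.42% of MT1 epithelial-like cells, in 0.37% of MT1 mesenchymal-like cells and in 0 of 9765 MT2 cells, against 0.53% of stromal cells.

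Detection of 2 factors in a cell was set against the number expected if they were independent within each library. This is a description across cells, which share library and depth, without a test. Of 66 combinations of pair and class with at least 5 expected cells, 1 had a 95% counting interval without the value 1, which was Elf5 with Ehf in MT1 epithelial-like cells. Intervals at this level leave out the true value in about 5% of cases, so 1 of 66 is no more than that rate gives. There 166 cells had both against 131 expected, a ratio of 1.27 (1.08 to 1.48), above 1 in 5 of 5 libraries. It was 86 against 68.2 in cluster 3 and 80 against 61.2 in cluster 4. At 2000 UMIs per cell it was 238 against 215, a ratio of 1.11 and above 1 in 4 of 5 libraries. In secretory-like cells the ratio was not beyond counting error at this depth, with 15 cells against 13.5 expected (0.62 to 1.83).

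Other pairs stayed within counting error of independence. In MT1 epithelial-like cells Ehf met Sox9 in 413 cells against 405 expected and Elf3 in 334 against 321. Sox10 met Tfap2c in 24 cells against 17.0 expected and Trp63 in 10 against 5.15. Among the pairs below expectation were Ehf with Gata3 (55 against 68.5), Elf5 with Elf3 (38 against 47.5), Elf5 with Sox9 (53 against 60.5) and Ehf with Tfap2c (86 against 93.3), all with intervals that include 1. In hormone-sensing-like cells Gata3 met Foxa1 in 22 cells against 18.0 expected (ratio 1.22, 0.77 to 1.85). The counts do not separate absence of a link from a weak one.

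**Figure D4:**
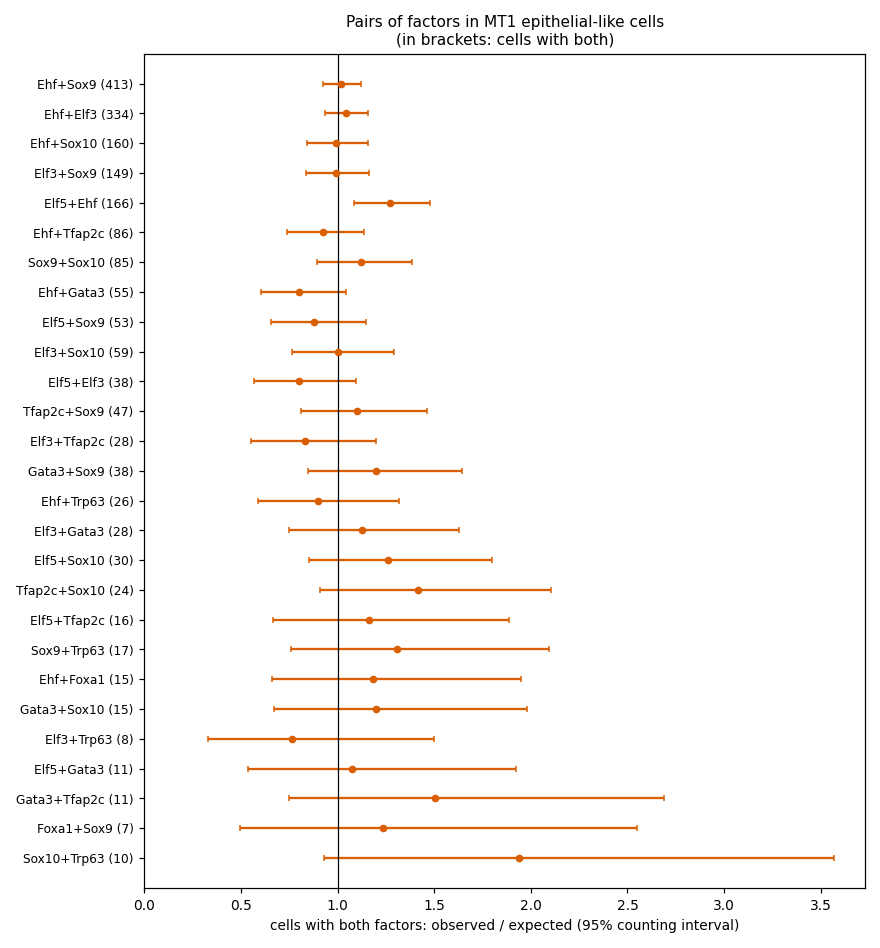
Ratio of observed to expected cells with both factors for 27 pairs in MT1 epithelial-like cells thinned to 1000 UMIs, with 95% counting intervals and the observed cells in brackets. Elf5 with Ehf (166 cells) is the pair whose interval lies above 1.

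The genes whose levels ran most like each factor were ranked by Pearson correlation of log2(CPM + 1) over 22 sums of a class in a library, among 10537 genes. The points share classes and libraries, so r is a description. Elf5 ran most like Slc9a3r1 (r = 0.94), Prodh (0.94) and Kit (0.93), and Ehf like Cldn3 (0.98), Hint2 (0.97) and Wfdc18 (0.97). Elf3 ran like Krt8, Nectin4 and Cldn3 (0.97, 0.96 and 0.95), a keratin of simple epithelia and 2 junction genes. Krt8, Cldn3, Kit and Wfdc18 were also among the markers that named the clusters, so their likeness is not independent of the classes. Foxa1 had Stc2 (0.92), Plekhh1 (0.91) and Nckap5 (0.91), and Gata3 had Grk3, Mpp5 and Rassf9 (0.97, 0.97 and 0.96). Tfap2c was nearest to Hexim1 (0.98), Stox2 (0.97) and Slc38a2 (0.96), and Sox10 to Vdr (0.96), Nrtn (0.95) and Cdc42ep3 (0.94). The likeness was weaker for Sox9, with Fam49a (0.91), Vcl (0.90) and Ssbp3 (0.87), and for Trp63, with Lamb3 (0.84), Mark1 (0.84) and Zfp281 (0.82). Between the factors themselves r was 0.94 for Ehf with Elf3, 0.91 for Tfap2c with Sox10, 0.88 for Elf5 with Elf3, 0.85 for Ehf with Sox10, 0.84 for Elf5 with Ehf, 0.77 for Elf3 with Sox10, 0.74 for Ehf with Tfap2c and 0.68 for Gata3 with Foxa1.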

How the data were processed

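Drop-seq UMIs were counted in 12 libraries of gland and tumor from 2 mice. The authors deposited unnormalized counts of UMIs for each gene in each cell, made with the Drop-seq tools and STAR (named in the submitters' processing notes) against GRCm38.p6 and filtered by genes detected per cell. The 10 genes and the lists were chosen with earlier results of these data known.

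Clustering used scanpy 1.11.5 with leidenalg 0.10.2 (3000 variable genes, 30 components, 20 neighbours, resolution 0.6), leaving the 10 genes out. Clusters were named from marker lists. A tumor cluster had at least 90% of its cells from tumor libraries. Class levels are CPM of summed UMIs per library, for classes of at least 20 cells. Doublets were not removed, because a caller found no more than 55 cells and was judged to have failed.

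Sums of the non-stromal cells per library were compared by the quasi-likelihood F test of edgeR 4.0.16 in R 4.3.3, after filterByExpr and with TMM factors. Calls were made at a p under 0.05 after Benjamini-Hochberg adjustment, and all 12 libraries in 4 groups entered the fit. SE is the absolute log2 fold change over the square root of F. The pairing of gland and tumor comes from the mouse given in the labels. The test was tried on simulated data first. Fold bounds use 3 counts over the group at 0. Expected co-detection is the product of both shares within a library, summed. Named list genes are at most 4 per list and contrast, with the largest change among those called. Genes most like a factor are the 3 with the highest r, for factors with at least 10 CPM in a class. Positions are from GENCODE, windows from RefSeq. DESeq2 1.42.0, RLE scaling, other cell sets, other thinning and leaving out each library were alternatives.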

Additional observations from a re-analysis of the deposited data

Results flagged for a closer look

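A library stood far from the others of its class in 4 of 30 groups of libraries examined. The rule marks about 1 in 20 groups of independent, normal values. Some groups here rest on very few UMIs and the groups share cells, so 4 of 30 cannot be read against that rate. Foxa1 in MT1 epithelial-like cells was lowest in MT1 replicate 3, at 3.06 CPM against 5.26 to 5.97 CPM in the others. The other 3 were in MT1 mesenchymal-like cells, where these factors were at or under the stromal level. Spdef was highest in MT1 replicate 3 (0.79 CPM from 1 UMI, others 0), Tfap2c in MT1 replicate 1 (10.7 CPM, others 4.74 to 6.16) and Trp63 in MT1 replicate 2 (15.4 CPM, others 0 to 3.84). The change from gland to tumor differed between the mice for 6 factors in the edgeR test of the difference, by a log2 value of 8.52 for Elf5, 8.16 for Ehf, 6.25 for Elf3, 7.15 for Foxa1, 7.28 for Tfap2c and 8.26 for Sox10. The value for Foxa1 rests on 0 UMIs in MT2 and is no measure of size. With 1 tumor per mouse, the mouse and its tumor cannot be told apart.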

How the results depend on the processing

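Counts of factors called in MT2 against MG2 (1 higher, 9 lower), in MT1 against MT2 (7 and 0) and in the difference between the mice (6 and 0) were the same under all 18 alternatives, and in MT1 against MG1 they were 3 to 4 higher and 4 to 5 lower. There Elf5 lost its call by DESeq2 (0.48) and ranged from 0.57 to 0.77 when each library was left out, and Tfap2c lost its call in 7 of 18, with 18 values between -0.57 and -0.13. Elf3 ranged from -0.14 to 0.78 without each library. In the difference between the mice Sox9 was -0.000717 with RLE size factors and -0.0625 to 0.50 without each library, and Trp63 -0.53 to 0.59, neither called. RLE moved the median of all genes by -0.12 in MT1 against MG1 and by -0.14 in the difference. In the comparison paired by mouse, DESeq2 called 4 factors lower where edgeR called 0, and the edgeR fit without the pairing block also called 0 higher and 0 lower (3 factors with an unadjusted p under 0.05 against 4). The cause was not tested for any of these. Leaving out cells above the 95th percentile of doublet scores in their library (870 cells, fewer than 5% because of ties, from the caller judged to have failed) moved 5 of 70 class levels by more than 1 SD, among them Ehf in MT1 mesenchymal-like cells to 43.0 CPM, and clustering at resolution 1.0 moved 0 of 70. Shares of cells moved with the thinning depth, and 2 of 66 co-detection ratios moved without thinning. The 3 genes most like a factor changed in part or whole for all 9 factors with log2(CPM + 10) and by Spearman's rho, and no more than 1 of the 3 was kept for 5 and 8 of them. Few UMIs limit Spdef and Trp63, and few cells limit the gland classes of MG1 replicate 2 (13 to 32 cells).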
